A study of Mus musculus with 12 samples.

Results

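The 10 genes described here are the receptors Notch1, Notch2 and Notch3, the ligands Dll1, Dll3 and Jag1, the receptor-modifying enzyme gene Lfng and the effectors Hes1, Hes5 and Hey1. They were taken by gene symbol from the 24411 genes of the deposited RNA-seq tables, and all 10 passed the filter on low counts (14311 genes tested). The libraries are mRNA of microdissected cerebral cortex, each from 1 mouse embryo, in 4 groups of 3 embryos: WT and HARE5Hs/Hs embryos at E12.5, and the same genotypes at E14.5, where E counts embryonic days. The enhancer HARE5 acts on Fzd8, a Wnt receptor gene. HARE5Hs/Hs embryos carry the human enhancer sequence as a knock-in on both alleles, and WT embryos keep the mouse sequence. Embryos of these genotypes are also called knock-ins and wild types below. No drug or other allele is given for any group. Strain, litter and sex are not labelled, so the 3 embryos of a group may share a litter. The tests set differences against the spread between these embryos, which may leave out the spread between litters.

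Notch signalling passes between touching cells. A Delta or Jagged ligand on 1 cell pulls on a Notch receptor on its neighbour, gamma-secretase then releases the intracellular part of the receptor, and this part joins the DNA-binding protein RBPJ and Mastermind proteins to switch on genes such as Hes1, Hes5 and Hey1. In the embryonic cortex, ligands are made by newborn neurons and intermediate progenitors, and the Hes and Hey repressors in neighbouring radial glia, the cortical stem cells, hold down proneural genes such as Neurog2. Notch receptors and Jag1 are also known genes of blood vessels, with Notch3 prominent in pericytes and smooth muscle, and vessels are part of the dissected tissue.

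The promoters of Hes5 and Lfng are shown because, among the members with a promoter entry, they alone hold the core motif of RBPJ, TGGGAA. RefSeq promoter windows (GRCm38.p6, 250 bases before to 50 bases after the start) were found for 8 of the 10 members, and Hes1 and Hey1 were not matched. The Hes5 window lies on the plus strand at chr4:154960673-154960972 and the Lfng window on the plus strand at chr5:140607091-140607390. Both run 5′ to 3′, and capitals mark TGGGAA or its reverse complement.

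Hes5: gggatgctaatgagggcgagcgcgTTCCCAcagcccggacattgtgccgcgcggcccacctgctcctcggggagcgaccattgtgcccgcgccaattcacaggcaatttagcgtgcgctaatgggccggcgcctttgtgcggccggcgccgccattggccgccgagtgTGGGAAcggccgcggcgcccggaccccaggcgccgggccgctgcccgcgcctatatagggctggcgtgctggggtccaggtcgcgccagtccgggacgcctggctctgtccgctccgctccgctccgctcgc

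Lfng: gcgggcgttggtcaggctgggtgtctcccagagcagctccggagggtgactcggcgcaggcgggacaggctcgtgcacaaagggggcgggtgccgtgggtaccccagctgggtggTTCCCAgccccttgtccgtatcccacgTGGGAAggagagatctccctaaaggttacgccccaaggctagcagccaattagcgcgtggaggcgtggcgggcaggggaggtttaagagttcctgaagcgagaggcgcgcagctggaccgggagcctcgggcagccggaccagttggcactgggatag

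In Hes5 the core motif starts 82 bases before the start on the plus strand, and a match on the minus strand covers the bases from 226 before the start. In Lfng the plus-strand match starts 108 bases before the start and the minus-strand match 135 before it. Searched on both strands, TGGGAA matched in 2 of 8 members, close to its share of 25.6% among 32851 RefSeq promoter windows of this length. The longer form GTGGGAA contains the core. It was found at both Hes5 matches and at the plus-strand Lfng match, and in 6.38% of all windows. The N-box CACNAG, bound by Hes proteins, matched in 5 of 8 members (Notch1, Notch2, Notch3, Dll1 and Lfng) against 42.5% of all windows. These 8 members have 9 windows, since Dll1 has a further one, which held no N-box. The E-box CACGTG, a motif of Hey proteins, matched in Lfng, 112 bases before the start, against 7.15% of all windows. A match is a run of letters and no measured binding, and the expression data below do not bear on it.

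Total counts ran from 11593202 to 17670103 per library. The marker lists of radial glia, intermediate progenitors and neurons were detected in every library, with summed levels of 2616 to 3600 CPM for the 8 radial glia markers. CPM is the count scaled to library size. Fzd8 itself stood between 49.8 and 82.1 CPM over the 12 libraries. E14.5 HARE5Hs/Hs replicate 3 stood apart, with 0.456 CPM summed over 4 choroid plexus markers and 5.10 CPM over 5 markers of meninges and mesenchyme. The other 2 libraries of its group held 76.3 and 209.8 CPM of the latter. Other annotated genes overlap Notch1 (0610009E02Rik and Gm13568 on the opposite strand, Mir6996 on the same), Notch2 (Gm42819 and Gm42820, same strand), Notch3 (Gm17276), Dll1 (A930024N18Rik) and Hes5 (Gm20421), the last 3 on the opposite strand. None of these was among the genes tested. The strand setting of the counting is not given in the sources used here, so reads of such pairs cannot be told apart. In bulk tissue, fewer cells of a type and less RNA per cell cannot be told apart.

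Levels of different genes are compared here as FPKM, the authors' values scaled for gene length and library size. In E12.5 WT, Hes5 had the highest level of the 10 (58.0 ± 11.6 FPKM, SD, n = 3). Its libraries lay above those of Dll1, the next in order, and overlapped with those of Hey1. Dll1 (45.7 ± 2.35 FPKM), Hey1 (42.4 ± 9.19 FPKM) and Notch1 (40.4 ± 4.56 FPKM) followed with overlapping libraries. Hes1 and Notch3 came next at 31.7 ± 3.74 and 31.1 ± 1.85 FPKM and overlapped. Lfng (27.99 ± 1.49 FPKM) and Notch2 (26.1 ± 5.62 FPKM) overlapped as well. Jag1 (8.71 ± 0.577 FPKM) and Dll3 (6.59 ± 1.14 FPKM) were the lowest, and their libraries did not overlap. In E12.5 HARE5Hs/Hs, Hes5 again led (54.3 ± 6.32 FPKM), the 7 genes from Dll1 to Notch2 overlapped each with the next, and Jag1 and Dll3 closed the order with overlapping libraries.

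By E14.5 the order had changed at its top and bottom. In E14.5 WT, Notch1 (45.1 ± 7.26 FPKM) and Dll1 (43.0 ± 6.32 FPKM) led with overlapping libraries. Hey1 followed apart from both neighbours (34.4 ± 1.94 FPKM). Notch2, Hes5, Hes1 and Lfng formed an overlapping run from 30.6 ± 0.535 down to 23.6 ± 3.13 FPKM. Notch3 (17.3 ± 1.39 FPKM), Dll3 (5.97 ± 0.918 FPKM) and Jag1 (3.66 ± 0.485 FPKM) each stood apart from the next, so Jag1 now lay below Dll3. In E14.5 HARE5Hs/Hs, Notch1 (45.5 ± 2.11 FPKM) stood apart from Dll1 (35.4 ± 3.40 FPKM), and from Dll1 down to Notch3 (15.9 ± 1.65 FPKM) each gene overlapped with the next in order. Dll3 (5.49 ± 1.28 FPKM) and Jag1 (4.07 ± 0.670 FPKM) overlapped at the bottom.

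**Figure D1:**
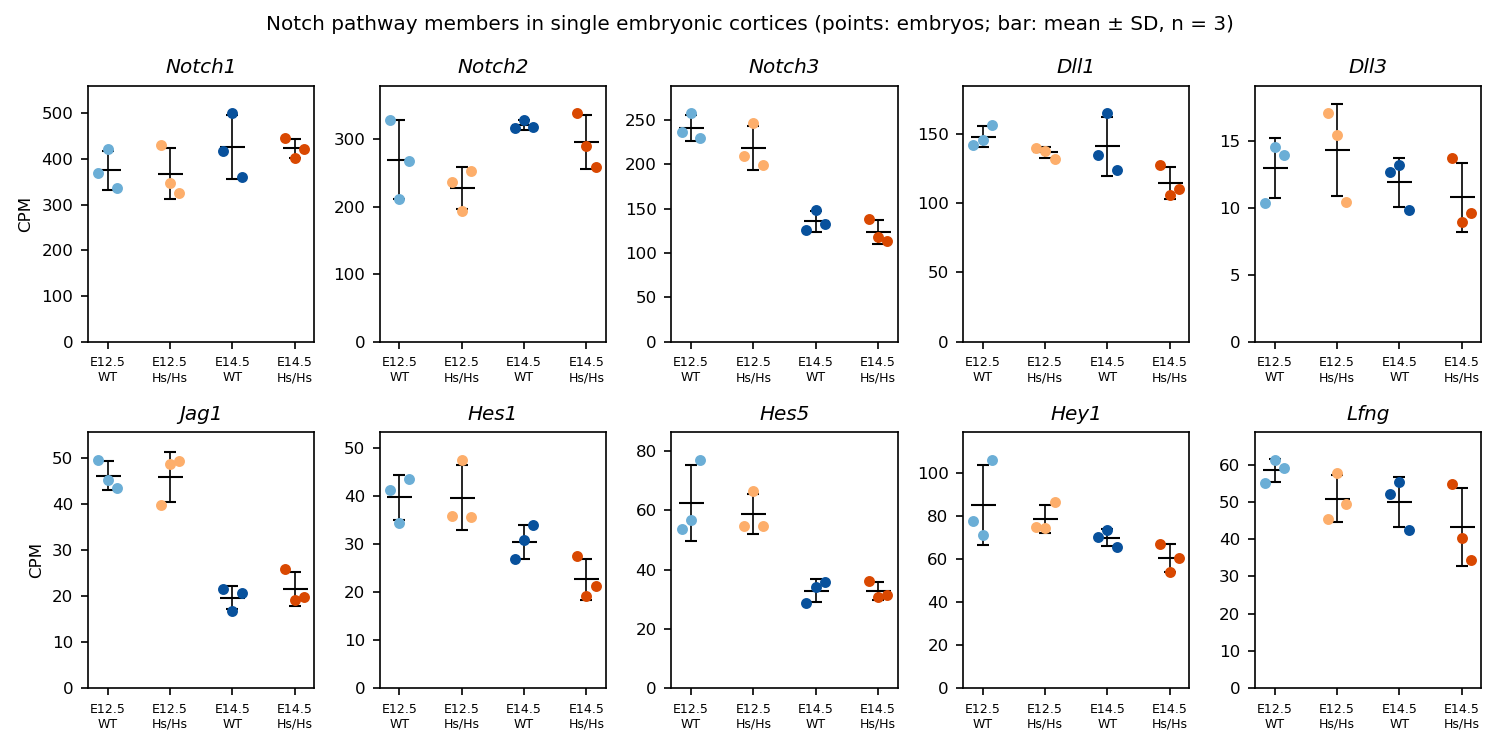
Level of each of the 10 genes in CPM (vertical axes from 0, scaled per gene) in the 12 embryos, with horizontal bars at the mean and error bars of 1 SD over n = 3 embryos of each age and genotype. Points of Notch3, Jag1 and Hes5 at E14.5 lie below all E12.5 points in both genotypes, and points of Notch1 overlap between all 4 groups.

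Between E12.5 and E14.5, 3 of the 10 members fell in both genotypes: a receptor (Notch3), a ligand (Jag1) and an effector (Hes5). Hes1 and Hey1 also fell in HARE5Hs/Hs, and none of the 10 rose in either genotype. "Fell" and "rose" stand for edgeR adjusted p under 0.05, from the quasi-likelihood test of edgeR, adjusted by Benjamini-Hochberg over 14311 genes. In WT, 3 of 10 members fell, where 15.2% of all genes tested fell and 20% rose (35.2% called in either direction). In HARE5Hs/Hs, 5 of 10 fell, where 22% of all genes fell and 23.7% rose (45.7% called). The share of all genes that fell in both genotypes was not computed. The median log2 fold change of the members was −0.25 in WT and −0.39 in HARE5Hs/Hs, and over all genes tested it was −0.01 and −0.03.

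Notch3, a receptor known for mural cells of vessels and also made by cortical progenitors, fell in both genotypes. Replicates 1, 2 and 3 held 236, 257 and 229.9 CPM among E12.5 wild types and 209.8, 247 and 199 CPM among E12.5 knock-ins. The E14.5 values were 126, 149 and 132 CPM for wild types and 139, 118 and 114 CPM for knock-ins. All 6 E14.5 libraries lay below all 6 E12.5 libraries. The fall was 1.78-fold in WT (log2 fold change −0.83, edgeR adjusted p = 0.000224, SE 0.10). In HARE5Hs/Hs it was 1.77-fold (−0.82, edgeR adjusted p = 0.000124, SE 0.10). The interaction was 0.00, with a 95% interval of −0.31 to 0.32 (edgeR adjusted p = 0.998).

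Notch1, the receptor best known from cortical radial glia, had the highest FPKM of the 3 receptors in each group mean and did not pass. It stood at 368, 421 and 337 CPM in E12.5 wild types and 431, 348 and 325 CPM in E12.5 knock-ins. E14.5 wild types held 417, 499 and 361 CPM and E14.5 knock-ins 445, 403 and 422 CPM. Libraries of the 2 ages overlapped in each genotype. The log2 difference was 0.18 in WT (95% interval −0.10 to 0.46, edgeR adjusted p = 0.302) and 0.20 in HARE5Hs/Hs (−0.08 to 0.49, edgeR adjusted p = 0.224).

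Notch2, a receptor of the same neural progenitors and of meninges, did not pass in either genotype. It stood at 328, 212 and 268 CPM in E12.5 wild types and 237, 194 and 252 CPM in E12.5 knock-ins. The E14.5 values were 316, 329 and 317 CPM for wild types and 338, 290.0 and 259 CPM for knock-ins. The ages overlapped in WT through replicate 1 of E12.5, and in HARE5Hs/Hs all E14.5 libraries lay above the E12.5 libraries. On the log2 scale the difference was 0.25 in WT (edgeR adjusted p = 0.203, SE 0.15) and 0.38 in HARE5Hs/Hs (edgeR adjusted p = 0.0538, SE 0.15). Without E12.5 WT replicate 1 it was 0.40 in WT and without E14.5 HARE5Hs/Hs replicate 3 it was 0.48 in HARE5Hs/Hs, and both passed (edgeR adjusted p = 0.0454 and 0.034).

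Notch3 made up a smaller part of the receptor FPKM at E14.5 than at E12.5, without overlap of libraries in either genotype. Summed FPKM of the 3 receptors was 97.6 ± 5.01 in E12.5 WT, 89.8 ± 5.88 in E12.5 HARE5Hs/Hs, 93.0 ± 8.89 in E14.5 WT and 90.1 ± 6.83 in E14.5 HARE5Hs/Hs (SD, n = 3). Notch3 made up 31.9% ± 1.86 of it in E12.5 WT and 18.6% ± 1.04 in E14.5 WT. In HARE5Hs/Hs it made up 31.5% ± 4.20 and 17.6% ± 0.486. The share of Notch1 went from 41.4% ± 3.80 to 48.3% ± 3.28 in WT and from 43.9% ± 3.70 to 50.6% ± 2.43 in HARE5Hs/Hs. In WT the Notch1 shares overlapped between ages (exact 2-sided permutation p = 0.2, n = 3 per group). In HARE5Hs/Hs they did not, and exact p = 0.1, the smallest that 3 against 3 libraries can give (adjusted over 12 share comparisons, 0.171).

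Jag1, the Jagged ligand of progenitors and of endothelial cells, had the largest fall of the 10 members in both genotypes. It stood at 49.6, 45.3 and 43.5 CPM in E12.5 wild types and 39.7, 48.6 and 49.4 CPM in E12.5 knock-ins. E14.5 wild types held 21.5, 16.8 and 20.7 CPM and E14.5 knock-ins 25.8, 19.2 and 19.8 CPM. No E14.5 library reached the lowest E12.5 library. The fall was 2.34-fold in WT (−1.23, edgeR adjusted p = 0.000160, SE 0.14) and 2.12-fold in HARE5Hs/Hs (−1.09, edgeR adjusted p = 0.000140, SE 0.14).

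Dll1, the main activating Delta ligand on cortical neurogenic cells, did not pass between ages in either genotype. It stood at 142, 146 and 156 CPM in E12.5 wild types and 139.8, 138 and 132 CPM in E12.5 knock-ins. The E14.5 values were 135, 165 and 124 CPM for wild types and 128, 106 and 110.1 CPM for knock-ins. The ages overlapped in WT, and in HARE5Hs/Hs the E14.5 libraries lay below the E12.5 libraries. The log2 difference was −0.07 in WT (95% interval −0.29 to 0.16, edgeR adjusted p = 0.636) and −0.25 in HARE5Hs/Hs (−0.48 to −0.03, edgeR adjusted p = 0.0652). Without E14.5 HARE5Hs/Hs replicate 1 the latter was −0.34 (edgeR adjusted p = 0.0262).

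Dll3, a divergent Delta protein that in mouse stays largely inside the cell and does not activate receptors on neighbours, did not pass either. Its libraries ran from 8.98 to 17.1 CPM and overlapped between all groups compared. The log2 difference between ages was −0.12 in WT (95% interval −0.63 to 0.38) and −0.41 in HARE5Hs/Hs (−0.91 to 0.10), with edgeR adjusted p = 0.712 and 0.174. These intervals are the widest of the 10 members.

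Dll1 made up most of the summed FPKM of the 3 member ligands, Dll1, Dll3 and Jag1, in every library. Other genes of this kind were outside the sum: group means ran from 1.96 to 2.68 FPKM for Dll4, from 3.02 to 4.03 FPKM for Jag2 and from 7.72 to 25.5 FPKM for Dner. Its share was 74.9% ± 1.03 in E12.5 WT and 81.6% ± 1.97 in E14.5 WT, and 72.6% ± 1.09 and 78.9% ± 1.72 in HARE5Hs/Hs (SD, n = 3). Jag1 made up 14.3% ± 1.56 and 7.09% ± 1.65 in WT and 14.95% ± 2.14 and 9.02% ± 0.403 in HARE5Hs/Hs. The Dll1 shares of the 2 ages did not overlap in either genotype (exact permutation p = 0.1 for each, adjusted 0.171). At E12.5 they were also apart between genotypes, by −2.31 percentage points in HARE5Hs/Hs (exact permutation p = 0.1, adjusted 0.171).

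**Figure D2:**
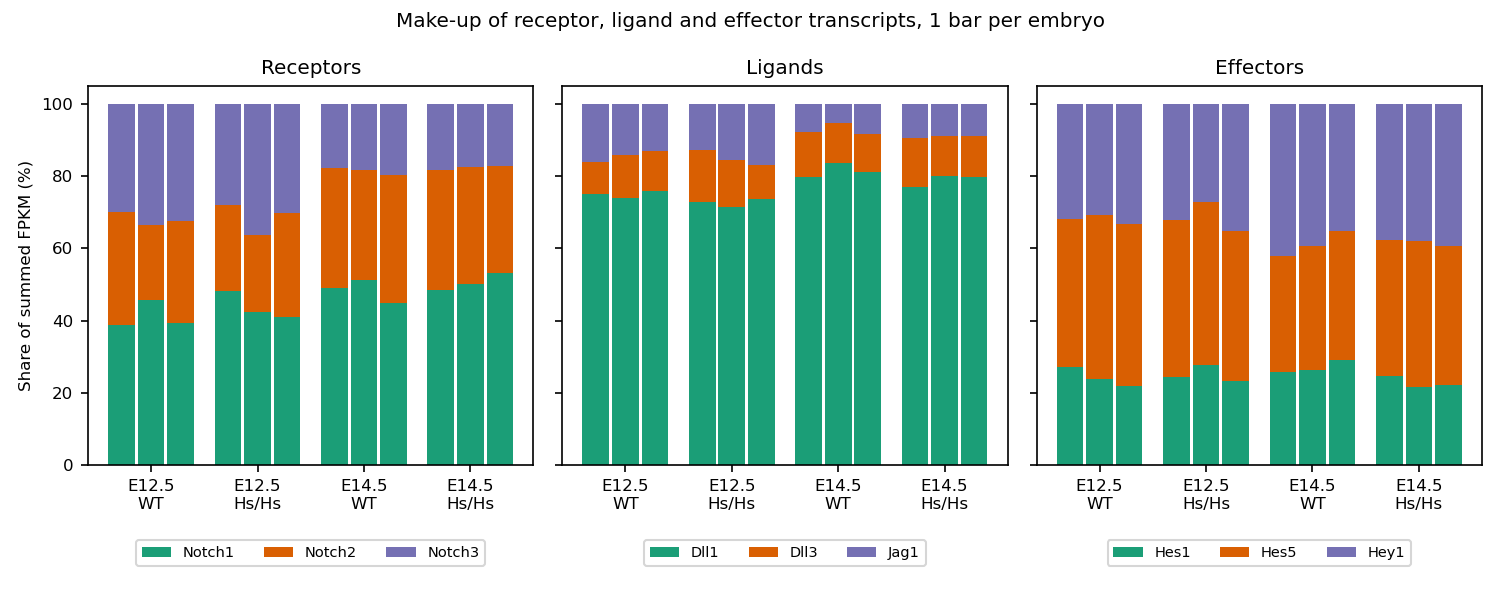
Share (%) of each gene in the summed FPKM of the 3 receptors (left), the 3 ligands (middle) and the 3 effectors (right), with 1 stacked bar per embryo, grouped by age and genotype. The Notch3 part and the Jag1 part are narrower in every E14.5 bar than in any E12.5 bar of the same genotype, and the Hes5 part is at 34.0% ± 1.93 in E14.5 WT and 38.8% ± 1.39 in E14.5 HARE5Hs/Hs.

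Lfng encodes the fringe enzyme that adds a sugar to Notch receptors and so shifts them from Jagged toward Delta ligands. Its libraries ran from 55.1 to 61.3 CPM in E12.5 WT, 45.5 to 57.7 CPM in E12.5 HARE5Hs/Hs, 42.6 to 55.3 CPM in E14.5 WT and 34.4 to 54.9 CPM in E14.5 HARE5Hs/Hs. The ages overlapped in both genotypes. On the log2 scale the difference was −0.23 in WT (95% interval −0.57 to 0.12, edgeR adjusted p = 0.286) and −0.23 in HARE5Hs/Hs (−0.58 to 0.11, edgeR adjusted p = 0.246). Without E14.5 HARE5Hs/Hs replicate 1 the latter was −0.45 (edgeR adjusted p = 0.024), and without replicate 3 it was −0.08 (edgeR adjusted p = 0.711). Leaving out E12.5 HARE5Hs/Hs replicate 2 gave −0.12 (edgeR adjusted p = 0.639). In WT, Lfng was at −0.10 without E14.5 WT replicate 3 (edgeR adjusted p = 0.677).

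Hes5, a repressor of proneural genes that depends closely on Notch in cortical radial glia, fell in both genotypes. It stood at 53.8, 56.7 and 77.0 CPM in E12.5 wild types and 54.9, 66.7 and 54.9 CPM in E12.5 knock-ins. E14.5 wild types held 28.7, 34.1 and 36.0 CPM and E14.5 knock-ins 36.1, 30.8 and 31.5 CPM. The lowest E12.5 library lay well above the highest E14.5 library. The fall was 1.90-fold in WT (SE of the log2 value 0.15, edgeR adjusted p = 0.000719) and 1.79-fold in HARE5Hs/Hs (−0.84, edgeR adjusted p = 0.000730, SE 0.15).

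Hes1, the related repressor that also oscillates in neural progenitors, fell in HARE5Hs/Hs and did not pass in WT. It stood at 41.3, 34.4 and 43.5 CPM in E12.5 wild types and 35.8, 47.5 and 35.6 CPM in E12.5 knock-ins. The E14.5 values were 26.9, 30.8 and 33.9 CPM for wild types and 27.5, 19.2 and 21.3 CPM for knock-ins. In both genotypes the E14.5 libraries lay below the E12.5 libraries, in WT by a narrow margin. The log2 difference was −0.38 in WT (edgeR adjusted p = 0.0835, SE 0.16) and −0.81 in HARE5Hs/Hs (edgeR adjusted p = 0.00181, SE 0.16). The age change itself was not shown to differ between genotypes: the interaction was −0.43 (95% interval −0.92 to 0.07, edgeR adjusted p = 0.921).

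Hey1, a repressor of the related Hey family, fell in HARE5Hs/Hs only just. It stood at 77.9, 71.5 and 106 CPM in E12.5 wild types and 75.1, 74.8 and 86.5 CPM in E12.5 knock-ins. E14.5 wild types held 70.5, 73.7 and 65.8 CPM and E14.5 knock-ins 67.3, 54.1 and 60.5 CPM. The ages overlapped in WT and did not in HARE5Hs/Hs. On the log2 scale the difference was −0.28 in WT (edgeR adjusted p = 0.123, SE 0.14) and −0.38 in HARE5Hs/Hs (edgeR adjusted p = 0.0389, SE 0.14), and the interaction was −0.09 (edgeR adjusted p = 0.971, SE 0.19). Without E12.5 WT replicate 3, the highest Hey1 library, the WT value was −0.08 (edgeR adjusted p = 0.638). The Hey1 call was lost when any of 5 of the 6 HARE5Hs/Hs libraries was left out (edgeR adjusted p 0.0579, 0.0693 and 0.154 without E12.5 replicates 1, 2 and 3, and 0.141 and 0.10 without E14.5 replicates 2 and 3). It held without E14.5 replicate 1 (edgeR adjusted p = 0.0293).

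Summed FPKM of the 3 effectors went from 132 ± 23.4 to 88.5 ± 5.21 in WT and from 125 ± 10.5 to 78.8 ± 8.72 in HARE5Hs/Hs (SD, n = 3). Within this sum, Hes5 went from 43.8% ± 2.41 to 34.0% ± 1.93 in WT and from 43.4% ± 1.76 to 38.8% ± 1.39 in HARE5Hs/Hs, without overlap in either (exact permutation p = 0.1 for each, adjusted 0.171). Hey1 made up 32.0% ± 1.26 and 38.9% ± 3.58 in WT and 31.5% ± 4.0 and 38.4% ± 0.913 in HARE5Hs/Hs. At E14.5 the Hes5 share was higher in HARE5Hs/Hs than in WT by 4.79 percentage points, without overlap (exact permutation p = 0.1, adjusted 0.171), while Hes5 itself averaged 32.9 ± 3.80 CPM among wild types and 32.8 ± 2.89 CPM among knock-ins. No exact permutation p-value of 3 against 3 libraries can fall below 0.1.

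In CPM, the E14.5 libraries lay wholly below the E12.5 libraries for 4 of 10 members in WT (22.9% of all genes) and 6 of 10 in HARE5Hs/Hs (29.6% of all genes). They lay wholly above for 0 members in WT (26.1% of all genes) and for 1, Notch2, in HARE5Hs/Hs (28.9% of all genes). In either direction, 49.1% of all genes were apart in WT and 58.5% in HARE5Hs/Hs. In the authors' deposited table for WT, the log2 fold changes of Notch3, Jag1 and Hes5 were −0.85, −1.25 and −0.94, with adjusted p-values of 8.02e-08, 6.63e-14 and 2.78e-06. Hes1 in WT was at −0.40 in the authors' deposited table (adjusted p = 0.0619). In the authors' deposited table for HARE5Hs/Hs, Hes1 had a log2 fold change of −0.80 (SE 0.18, adjusted p = 3.60e-05), and Hey1 one of −0.37 (SE 0.17) with an adjusted p of 0.0663, not under 0.05.

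**Figure D3:**
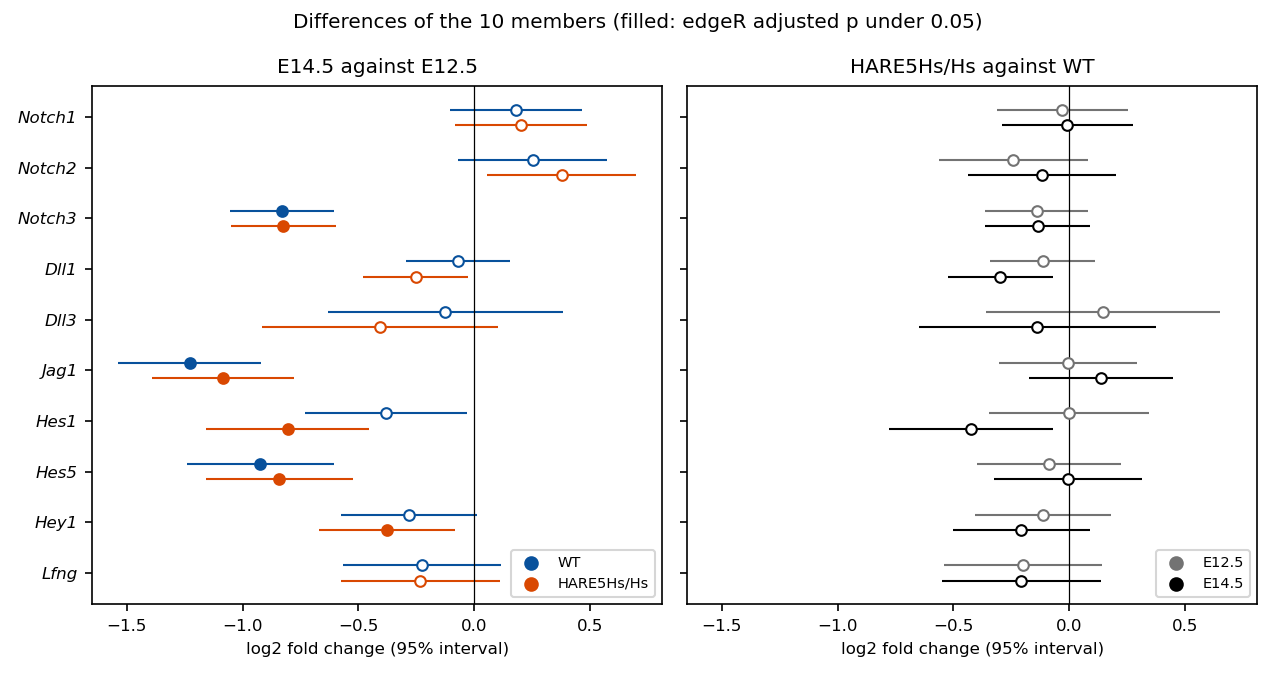
Log2 fold changes of the 10 genes with 95% intervals from the edgeR fit (horizontal axis), for E14.5 against E12.5 in each genotype (left) and for HARE5Hs/Hs against WT at each age (right), with filled points for edgeR adjusted p under 0.05. Filled points appear in the left panel only: 3 genes in WT and 5 in HARE5Hs/Hs, all below 0.

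Other cell types moved with age in the same libraries. Of 8 radial glia markers, 2 fell and 1 rose in WT and 4 fell in HARE5Hs/Hs. Sox2, the progenitor transcription factor, had the largest fall of the 8, by 0.67 and 0.75 on the log2 scale. The list reached up to 0.75 in WT (median −0.13, 3 above 0) and 0.48 in HARE5Hs/Hs (median −0.30, 2 above 0). Slc1a3, another of these markers, averaged 80.0 ± 7.64 CPM in E12.5 WT and 134.9 ± 7.38 CPM in E14.5 WT. Of 4 markers of intermediate progenitors, 4 rose in WT and 3 in HARE5Hs/Hs (median log2 fold changes 1.25 and 1.15), with summed levels of 344 to 394 CPM and 321 to 471 CPM at E12.5 and of 744 to 834 CPM and 792 to 845 CPM at E14.5. Of 5 neuron markers, 5 rose in each genotype, and their summed level went from 1341 to 1375 CPM in E12.5 WT and 1228 to 2163 CPM in E12.5 HARE5Hs/Hs to 3119 to 4048 and 3785 to 5253 CPM at E14.5. Of 6 endothelial markers, 5 fell in WT and 6 in HARE5Hs/Hs, with summed ranges of 269.9 to 365 CPM and 264 to 369 CPM at E12.5 and of 95.5 to 215 CPM and 92.1 to 181 CPM at E14.5. Of 5 pericyte markers, Pdgfrb fell in both genotypes (−1.17 in WT and −1.44 in HARE5Hs/Hs) and Rgs5 rose in WT. Their summed ranges were 83.7 to 123 and 80.7 to 103 CPM at E12.5 and 36.6 to 84.3 and 36.0 to 63.0 CPM at E14.5. Of 5 markers of meninges and mesenchyme, 2 fell in WT and 4 in HARE5Hs/Hs, with summed ranges of 616 to 1017 CPM and 527 to 937 CPM at E12.5 and of 46.8 to 419 CPM and 5.10 to 209.8 CPM at E14.5. Without E14.5 HARE5Hs/Hs replicate 3, the library with least of these, Notch3 (−0.75), Jag1 (−1.01), Hes1 (−0.75) and Hes5 (−0.80) fell in HARE5Hs/Hs (edgeR adjusted p = 0.000962, 0.000831, 0.00967 and 0.00442). The other 2 libraries of its group, at 76.3 and 209.8 CPM, also lay below the E12.5 libraries in the meninges and mesenchyme markers. Leaving out replicate 3 therefore did not remove the age difference in these markers. Of 4 erythroid markers, 2 fell in WT and 1 in HARE5Hs/Hs, with summed ranges of 2626 to 4018 CPM and 3004 to 10639 CPM at E12.5 and of 695 to 2109 CPM and 2255 to 5405 CPM at E14.5. No listed marker of these types was at 0 in all libraries of a group. The part of vessels, meninges and cell proportions in the changes of Notch3, Jag1, Hes1, Hes5 and Hey1 was not tested.

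Set against the mean log2 level of the 8 radial glia markers in the same library, Notch3, Jag1 and Hes5 were lower at E14.5 without overlap in both genotypes. The log2 difference was −0.76 in WT and −0.59 in HARE5Hs/Hs for Notch3, −1.16 and −0.86 for Jag1, and −0.84 and −0.60 for Hes5 (exact permutation p = 0.1 for each, adjusted over 40 comparisons 0.333). Hes1 differed by −0.31 in WT (exact permutation p = 0.3) and −0.57 in HARE5Hs/Hs (exact permutation p = 0.1). On the same scale Notch1 was higher by 0.25 and 0.44 and Notch2 by 0.35 and 0.61, without overlap in HARE5Hs/Hs only (exact permutation p = 0.1 for each there). Dll1 (−0.01 and −0.02), Lfng (−0.16 and −0.02) and Hey1 (−0.19 and −0.15) lay closer to 0, with overlapping libraries. The mean log2 level of the markers ran from 7.84 to 8.07 in E12.5 WT and from 7.83 to 7.90 in E14.5 WT. In HARE5Hs/Hs it ran from 7.94 to 8.07 at E12.5 and from 7.74 to 7.85 at E14.5. All values on this scale include that change of the markers, and Notch1 in CPM overlapped between ages in both genotypes. Single markers changed with age by −0.67 to 0.75 in WT and by −0.75 to 0.48 in HARE5Hs/Hs. The values on this scale therefore depend on the markers taken. The share of all genes without overlap was not computed on this scale.

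Between genotypes, none of the 10 members passed at either age, over both ages or in the genotype by age interaction. At E12.5 all 10 had edgeR adjusted p = 1, and the called share over all genes was 0% (322 genes with edgeR p under 0.05 before adjustment, none of them a member, and 0 calls by DESeq2). At E14.5 the called share was again 0%, with 1708 genes under 0.05 before adjustment, 2 members among them, and 35 calls by DESeq2, none a member. Over both ages it was 0% (1366 genes before adjustment, 1 member among them, and 0 calls by DESeq2). For the interaction it was 0% (731 genes before adjustment, no member, and 1 call by DESeq2, no member).

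The genotype differences of the members were small and mostly below 0. At E12.5, 9 of 10 log2 differences lay below 0, where 7059 of 14311 genes tested did. They ran from Notch2 at −0.24 (SE 0.15) to Hes1 at 0.00 to the second decimal, with Dll3 above 0 at 0.14 (SE 0.23). Notch1, Jag1, Hes1, Hes5 and Hey1 changed sign there when a library was left out, and the other members did not. The median was −0.10 against 0.00 over all genes tested. The 95% intervals of the 10 members reached from −0.56 at the lowest to 0.65 at the highest bound, so a doubling or halving lay outside each. The libraries of Dll1 were lower in HARE5Hs/Hs without overlap, 1 of 10 members against 3.81% of all genes (3.34% were higher and 7.15% either), with a difference of −0.12 (SE 0.10). Set against the radial glia markers of the same library, Notch3 (−0.23), Dll1 (−0.20) and Lfng (−0.29) were lower in HARE5Hs/Hs at E12.5 without overlap (exact permutation p = 0.1 for each, adjusted over 40 comparisons 0.333), and at E14.5 the libraries of every member overlapped on that scale. In CPM, Notch3 and Lfng overlapped between genotypes at E12.5. The radial glia markers themselves had a median log2 difference of 0.09 there, with 6 of 8 above 0. The share of all genes without overlap was not computed on that scale.

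At E14.5, 9 of 10 log2 differences again lay below 0, where 7352 of 14311 genes tested did. The median was −0.14 against −0.01 over all genes, and the libraries of all 10 members overlapped between genotypes (8.93% of all genes were lower without overlap and 9.48% higher, 18.4% in all). The 2 members under 0.05 before adjustment were Dll1 and Hes1. Dll1 averaged 141 ± 21.2 CPM among wild types and 115 ± 11.6 CPM among knock-ins, a log2 difference of −0.30 (95% interval −0.52 to −0.07, edgeR adjusted p = 0.342). Hes1 averaged 30.5 ± 3.53 and 22.7 ± 4.28 CPM, a difference of −0.43 (−0.78 to −0.07, edgeR adjusted p = 0.356). Jag1 was the 1 member above 0, at 0.14 (−0.17 to 0.45, edgeR adjusted p = 0.703). Hes5 differed by 0.00 to the second decimal, with an interval from −0.32 to 0.32 (edgeR adjusted p = 0.995), and Notch1 by −0.01 (−0.29 to 0.27, edgeR adjusted p = 0.987). No interval of the 10 reached a log2 difference of 1 in size, with bounds from −0.78 to 0.45.

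Averaged over both ages, Dll1 was lower in HARE5Hs/Hs by a log2 difference of −0.21 (95% interval −0.37 to −0.05, edgeR adjusted p = 0.508). The other 9 members lay between −0.21 for Hes1 and 0.06 for Jag1. In the interaction the members ran from −0.43 for Hes1 to 0.14 for Jag1, with a median of 0.00 to the second decimal against −0.02 over all genes tested. The widest bound was that of Dll3, at −1.0.

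Markers of other cell types were compared between the genotypes too. A ventral telencephalon list, of which Dlx2 is a member, varied between the embryos: its 5 genes summed to 7.91 to 38.5 CPM in E12.5 WT, 3.46 to 161 CPM in E12.5 HARE5Hs/Hs, 11.7 to 18.2 CPM in E14.5 WT and 26.7 to 72.9 CPM in E14.5 HARE5Hs/Hs. All 5 were above 0 in HARE5Hs/Hs against WT at both ages, with median log2 differences of 1.59 (E12.5) and 1.76 (E14.5). In the older embryos, 4 of 4 erythroid markers (median 1.66, 4 under 0.05 before adjustment) and 5 of 5 neuron markers (median 0.41) were above 0, and 5 of 5 markers of meninges and mesenchyme were below 0 (median −1.25). At E12.5 the medians were 0.82 for the erythroid, 0.25 for the neuron and −0.09 for the meninges markers. Below 0 at E14.5 were also 5 of 8 radial glia markers (median −0.07), 5 of 6 endothelial markers (−0.21) and 4 of 5 pericyte markers (−0.21). At E12.5, 2 of 8, 5 of 6 and 3 of 5 of these lay below 0 (medians 0.09, −0.06 and −0.18). None of these markers passed between genotypes, and their part in the values of the members was not tested.

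The wider pathway was described through 51 further genes listed by role, of which 49 were tested. In WT 12 rose and 7 fell with age, and in HARE5Hs/Hs 20 rose and 10 fell, against 20% and 15.2%, and 23.7% and 22%, of all genes. In all, 12 rose in both genotypes, 5 fell in both and 0 passed in opposite directions. The share of all genes called in both genotypes was not computed. The medians were 0.06 and 0.10. The fallen genes numbered 4 without E12.5 WT replicate 2 in WT. In HARE5Hs/Hs they numbered 4 without E12.5 replicate 3, 6 without E14.5 replicate 2 and 5 without E14.5 replicate 3. None of the 49 passed in a genotype comparison or in the interaction. Between genotypes, 34 of the 49 lay below 0 at E12.5 and 22 at E14.5 (median log2 differences −0.05 and 0.02).

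Among 6 other receptors and ligands, 1 rose and 1 fell in WT and 2 rose and 2 fell in HARE5Hs/Hs. Dlk1, a Delta-like protein without the usual receptor-binding domain and an imprinted gene, fell most, from 36.3 to 74.7 CPM in E12.5 WT to 1.82 to 8.16 CPM in E14.5 WT (−3.60, edgeR adjusted p = 0.000618, SE 0.55). In HARE5Hs/Hs it fell by 3.23 on the log2 scale (edgeR adjusted p = 0.000677). Dner, a neuronal Notch-binding protein, rose by 1.00 in WT (edgeR adjusted p = 0.0167) and 1.34 in HARE5Hs/Hs (edgeR adjusted p = 0.00232). Dlk2, the low relative of Dlk1, rose in HARE5Hs/Hs from 0.306 to 0.532 CPM at E12.5 to 2.02 to 3.31 CPM at E14.5 (2.59, edgeR adjusted p = 0.000617, SE 0.44), while its WT value was 0.87 (edgeR adjusted p = 0.123). The interaction of Dlk2 was 1.72 (edgeR adjusted p = 0.921, SE 0.60).

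Of 6 genes of ligand endocytosis, 2 rose and 1 fell in WT and 4 rose in HARE5Hs/Hs, beside the 35.2% and 45.7% of all genes called in either direction. The ubiquitin ligase gene Neurl1b rose from 3.99 to 5.33 CPM to 15.1 to 16.4 CPM in WT (1.74, edgeR adjusted p = 0.00165, SE 0.32) and by 1.62 in HARE5Hs/Hs (edgeR adjusted p = 0.00139). Mib2, a relative of the ligase that primes Delta ligands, rose by 0.33 (edgeR adjusted p = 0.0195) and 0.67 (edgeR adjusted p = 0.000269). Of 8 receptor cleavage genes, 2 rose in WT, and 3 rose and 1 fell in HARE5Hs/Hs. The gamma-secretase subunit gene Aph1b rose by 0.91 in WT (edgeR adjusted p = 0.000761) and 1.09 in HARE5Hs/Hs (edgeR adjusted p = 0.000160). Adam17, a surface protease, fell in HARE5Hs/Hs by 0.44 on the log2 scale (edgeR adjusted p = 0.0178) and was at −0.33 in WT (edgeR adjusted p = 0.0666).

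In the nucleus, 4 of 11 genes of the RBPJ complex and its cofactors rose and 3 fell in WT, and 6 rose and 3 fell in HARE5Hs/Hs. Maml3, a Mastermind coactivator gene, fell from 49.8 to 55.1 CPM to 30.1 to 37.0 CPM in WT (−0.69, edgeR adjusted p = 0.000373, SE 0.09) and by 0.57 on the log2 scale in HARE5Hs/Hs (edgeR adjusted p = 0.000578). Kat2b, an acetyltransferase coactivator, rose by 0.92 (edgeR adjusted p = 0.000614) and 0.79 (edgeR adjusted p = 0.000818). Spen, a corepressor of RBPJ targets, rose by 0.46 (edgeR adjusted p = 0.00170) and 0.65 (edgeR adjusted p = 0.000146). Rbpj itself, named after its values were seen, rose from 175 to 199 CPM in E12.5 WT to 232 to 259 CPM in E14.5 WT (0.39, edgeR adjusted p = 0.00558) and by 0.53 in HARE5Hs/Hs (edgeR adjusted p = 0.000612).

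Of 9 antagonists and turnover genes, 3 rose and 1 fell in WT and 4 rose and 2 fell in HARE5Hs/Hs. Of the 4 Deltex ligase genes, Dtx1 rose from 8.05 to 9.78 CPM to 34.0 to 41.2 CPM in WT (2.07, edgeR adjusted p = 0.000426, SE 0.29) and by 2.26 in HARE5Hs/Hs (edgeR adjusted p = 0.000133). Dtx4 fell by 0.74 and by 1.00 on the log2 scale (edgeR adjusted p = 0.00166 and 0.000182). Dtx3 rose in HARE5Hs/Hs (0.42, edgeR adjusted p = 0.00429) and was at 0.21 in WT (edgeR adjusted p = 0.113). Dtx2 was at −0.35 in WT and −0.23 in HARE5Hs/Hs (edgeR adjusted p = 0.0531 and 0.164). Among 5 fringe and maturation genes none passed in WT, and in HARE5Hs/Hs Rfng, the Radical fringe gene, rose by 0.50 (edgeR adjusted p = 0.00141). Pofut1, which adds the fucose that fringes extend, fell there by 0.26 on the log2 scale (edgeR adjusted p = 0.0166). Of 6 further effector genes 4 were tested and 1 fell, Heyl, a vascular and neural Hey relative, at −1.10 in WT (edgeR adjusted p = 0.0436) and −1.26 in HARE5Hs/Hs (edgeR adjusted p = 0.0199).

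**Figure D4:**
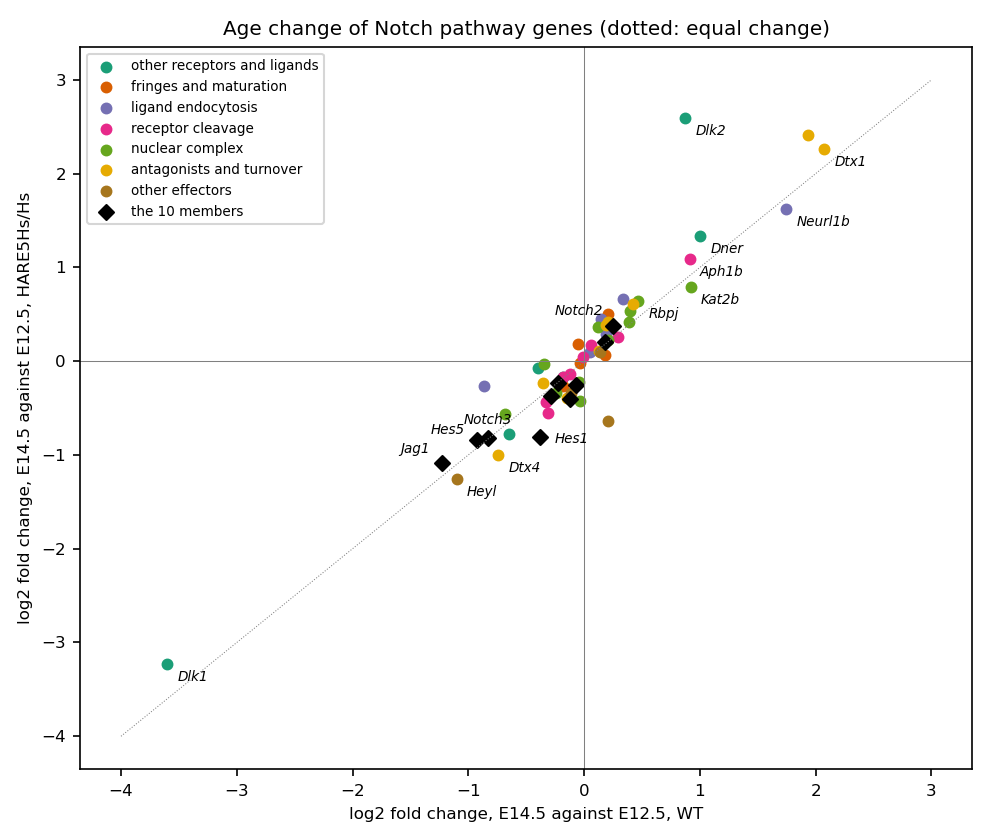
Log2 fold change from E12.5 to E14.5 in WT (horizontal axis) and in HARE5Hs/Hs (vertical axis) of 49 Notch pathway genes, coloured by role, and of the 10 members (black diamonds), with a dotted line of equal change. Most genes lie near the line, with Dlk1 at the lower left, Dtx1 and Neurl1b at the upper right, and Jag1, Notch3 and Hes5 together below 0 on both axes.

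The proneural genes that Hes and Hey proteins repress were followed beside them. Of 6 listed, 4 rose in WT, and 4 rose and 1 fell in HARE5Hs/Hs. Neurog2, the main proneural gene of the dorsal cortex, rose from 94.5 to 121 CPM in E12.5 WT to 199 to 215 CPM in E14.5 WT (0.97, edgeR adjusted p = 0.000238, SE 0.12) and by 0.82 in HARE5Hs/Hs (edgeR adjusted p = 0.000301). Neurog1 did not pass (−0.17 in WT and 0.10 in HARE5Hs/Hs, edgeR adjusted p = 0.611 and 0.763). Dlx2, a ventral transcription factor gene, stood at 39.3, 21.0 and 1.20 CPM in the 3 libraries of E12.5 HARE5Hs/Hs.

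Among themselves, the members followed a few profiles over the 12 libraries. Likeness was measured as the root mean square difference of log2 CPM, each gene centred on its own mean, and it is a description over libraries that share age groups and scaling. The closest pairs of members were Dll1 and Lfng (0.143), Dll1 and Hey1 (0.155) and Notch3 and Hes5 (0.162). The most unlike pair was Notch2 and Jag1 (0.777). Outside the members, among 9774 genes compared, Zfp36l1, Mdk and Asf1b came closest to Hes5 (0.140, 0.142 and 0.149, against 0.465 for the spread of Hes5 itself). These 3 fell in both genotypes, Zfp36l1 by 0.80 and 0.92, Mdk by 0.70 and 0.87, and Asf1b by 0.75 and 0.81 on the log2 scale. Polr1b, Mpdu1 and Atad3a came closest to Dll1 (0.0772, 0.0792 and 0.0800, against its own 0.177). Rab4b and Magi1 were among the 3 closest to Notch1 (0.0937 and 0.0959, against its own 0.177).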

How the data were processed

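RNA-seq of 12 single-embryo cortices was analysed from 2 deposited tables. Per the labels' protocols, the library kit was stranded. Per the submitters' processing notes, STAR, DESeq2 and the build mm39 were used. The names of the deposited tables mention STAR and Salmon. No version, strand setting of the counting or model formula is named, and these are treated as unknown. Per the file headers, each table holds an expected count and an FPKM for every library, made by the authors, with the authors' log2 fold change, standard error and p-value of the age comparison within a genotype. All deposited expected counts are whole and were the same in both tables (0 cells differ). A further 12 columns, of 6 libraries that match no sample, were not used.

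Counts were fitted in R 4.3.3 with edgeR 4.0.16: filterByExpr with a minimum count of 10, TMM scaling, 1 mean per group over all 12 libraries, no block, and the 2-sided quasi-likelihood test, adjusted by Benjamini-Hochberg for 14311 genes (threshold 0.05). The SE is the log2 fold change over the root of F, which is approximate. For log2 CPM the prior count was 2. FPKM was used only to compare genes with each other. Replicates differed beyond counting noise (chi-square per degree of freedom 12.3 to 26.9), so the spread between embryos, not depth, sets most of the precision. Shares and levels relative to radial glia markers were compared by exact 2-sided permutation of 3 against 3. Scripts were tested on simulated data. Alternatives were the DESeq2 1.42.0 Wald test, DESeq2 size factors, no filter, a filter at 1 CPM in 3 or more libraries, a fit of the compared groups alone, a block for the replicate number, Sox2 and Pax6 alone as radial glia markers, and leaving out each library. Shares were also taken with further genes in the sum and from counts in place of FPKM, and those values are not reported here.

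The members, pathway lists and markers were chosen with earlier results of these data known. Named genes are the members, up to 2 genes per role with the smallest p among those past the threshold in each age comparison, Neurog1, Neurog2, Dlx2, Fzd8, and for Notch1, Dll1 and Hes5 the 3 most alike genes with a mean CPM of at least 10. Rbpj, Dtx2 and Dtx3, the markers with values and the overlapping genes were named in addition. Some genes that the rule selects are not reported here. Motifs were searched on both strands of RefSeq promoter windows (GRCm38.p6); no coordinates of the authors' build were used.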

Additional observations from a re-analysis of the deposited data

How the results depend on the processing

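All settings gave 0 called members in the genotype comparisons and the interaction. Over all genes, DESeq2 called 35 at E14.5, and edgeR called 19 there without E14.5 HARE5Hs/Hs replicate 1. Of 240 alternative age values of single members, 222 kept direction and side of the threshold, 6 lost it, 10 gained it and 2 changed sign. Of 580 genotype and interaction values, 521 kept direction and 59 changed sign. Notch3, Jag1 and Hes5 passed under every alternative run in both genotypes, and Hes1 did in HARE5Hs/Hs. The count in WT was 3 to 4 with a library left out, and 4 with only the libraries compared (Hes1 added). In HARE5Hs/Hs it was 4 to 7 with a library left out, 6 with DESeq2 or no filter (Notch2 added) and 7 with only the libraries compared (Notch2 and Dll1 added). All genes called in WT numbered 3245, not 5041, when analysed without E14.5 WT replicate 1. Among the other pathway genes, an alternative chosen after the values were seen, DESeq2 gave 11 that fell in WT against 7.

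Labels do not say that equal replicate numbers pair embryos. Same-numbered libraries correlated, after group means were removed, at −0.0561, 0.0806 and 0.0497 between ages in WT, −0.200, −0.105 and −0.0618 in HARE5Hs/Hs, 0.0963, 0.336 and 0.124 between genotypes at E12.5, and −0.112, −0.144 and −0.443 at E14.5, so they were not treated as pairs. With the replicate block, 3 members passed in WT and 4 in HARE5Hs/Hs (Hey1 at an edgeR adjusted p of 0.068), Notch1 at E14.5 was 0.0029 and Dll3 over both ages −0.012.

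Sign changes came from values near 0, as log2 differences. With the DESeq2 Wald test, Notch1 at E14.5 was 0.012, Hes5 at E14.5 0.017 and the Lfng interaction 0.015, and with DESeq2 size factors 0.012, 0.017 and 0.016. Hes1 at E12.5 was 0.0031 with no filter and 0.0021 with only the libraries compared. Against Sox2 and Pax6 alone, Dll1 was at 0.16 in WT and 0.11 in HARE5Hs/Hs, Dll3 at 0.12 in WT, and Lfng at 0.0099 and 0.11.

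With a library left out, ranges that cross 0 were as follows. With age in WT, Dll1 ran from −0.21 to 0.038 and Dll3 from −0.28 to 0.016. At E12.5 between genotypes, Notch1 ran from −0.16 to 0.064, Jag1 from −0.058 to 0.088, Hes1 from −0.15 to 0.075, Hes5 from −0.19 to 0.095 and Hey1 from −0.22 to 0.080. At E14.5, Notch1 ran from −0.12 to 0.13, Jag1 from −0.0011 to 0.22 and Hes5 from −0.077 to 0.059. Over both ages, Notch1 ran from −0.084 to 0.051, Dll3 from −0.099 to 0.096, Jag1 from −0.0037 to 0.11 and Hes5 from −0.096 to 0.046. In the interaction, Notch1 ran from −0.092 to 0.16, Notch2 from −0.021 to 0.27, Notch3 from −0.074 to 0.10, Hes5 from −0.098 to 0.20, Hey1 from −0.29 to 0.017 and Lfng from −0.20 to 0.13. Over radial glia markers, Dll1 ran from −0.11 to 0.065 in wild types and from −0.074 to 0.0048 in knock-ins, Dll3 from −0.15 to 0.067 in WT and Lfng from −0.18 to 0.12 in HARE5Hs/Hs. The Hes5 share between genotypes at E12.5 ran from −1.79 to 0.492 percentage points.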
